A study of Schizothorax plagiostomus with 18 samples.

Results

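Of 135031 features measured in the gonads of the snow trout Schizothorax plagiostomus, 42 were ovary-predominant features of intermediate level that stood lower in spawning than in pre-spawning ovaries. A feature is a single assembled transcript or a cluster of transcripts. Levels are counts per 1000000 counts of a library (CPM). The 42 were chosen from measured values. Their mean over the 9 ovaries was 10 to under 200 CPM and at least 16 times the mean over the 9 testes. More than 3 counts were required in at least 1 testis. The lowest of the 3 pre-spawning ovaries had to exceed the highest of the 3 spawning ovaries, and the pre-spawning mean had to be at least 2 times the spawning mean. Of all features tested in ovaries, 2.68% met this last pair of conditions. The lower level at spawning and the excess over testes therefore defined the group, and neither is a finding. Features carry identifiers without gene names in these data, so no function can be given to any of them, and neither gonad could be checked against marker genes.

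Schizothorax plagiostomus is a cold-water cyprinid of Himalayan rivers that breeds seasonally. In a fish ovary, growing oocytes accumulate RNA and yolk ahead of spawning, ripe eggs are shed at spawning, and younger oocytes remain in or enter the growing pool afterwards. Oocytes are known for large stores of maternal RNA, and follicle cells surround them and make steroids. A testis holds germ cells that pass from spermatogonia to sperm, with supporting somatic cells. Libraries of whole gonads cannot tell fewer cells of a type apart from less RNA per cell, and this holds for every difference given here.

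Ovaries of females and testes of males were sequenced at 3 stages: pre-spawning (PrSF ovaries, PrSM testes), spawning (SF, SM) and post-spawning (PoSF, PoSM), with 3 libraries in each of the 6 groups. No treatment, strain or age is named in the labels. Each library is also labelled with a season from 1 to 3, which equals its replicate number. Whether each library is a different fish is not said in the labels, so a p-value here reflects variation among libraries that may be technical. Library totals ranged from 24697526 to 47801904 counts in pre-spawning and spawning ovaries, from 14604277 in post-spawning ovary 1 to 46411875 in post-spawning ovary 2, and from 24682616 to 52676056 in testes.

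The 42 features had mean levels from 10.1 to 192 CPM over the 9 ovaries, with a median of 35.7 CPM. Over the 9 testes their means ran from 0.0166 to 2.73 CPM, with a median of 0.286 CPM. The ratio of the ovary mean to the testis mean ran from 16.3 to 2062, with a median of 122. The pre-spawning ovary mean was between 2.01 and 377 times the spawning ovary mean, with a median of 2.63 times. No test is attached to these values, since they chose the features.

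Several features lay close to the limits of the choice. For the mean ovary level, cluster65091 (10.1 CPM) and cluster15003 (10.5 CPM) were just inside, and cluster1421 (9.60 CPM) and cluster70940 (9.54 CPM) just outside. At the upper limit cluster21942 (192 CPM) and cluster7097 (113 CPM) were inside, and cluster59169 (311 CPM) and cluster36843 (490 CPM) outside. For the ratio of ovary to testis, cluster46459 (16.3) and cluster55868 (16.8) were inside, and cluster63700 (12.97) and cluster67669 (12.4) outside. Highest testis counts of 4 placed cluster54312 and cluster52133 inside, while 3 counts left cluster48179 and cluster33043 outside. The ratio of the lowest pre-spawning to the highest spawning ovary was 1.005 for cluster68340 and 1.009 for cluster14516, against 0.990 for cluster62052 and 0.933 for cluster28982 outside. The ratio of the stage means was 2.01 for cluster36630 and 2.04 for cluster44320, against 1.98 for both cluster35642 and cluster195 outside.

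Together the 42 features took 0.289% to 0.356% of the counts of a pre-spawning, 0.0861% to 0.140% of a spawning and 0.0807% to 0.272% of a post-spawning ovary. Their summed level was 2955, 3556 and 2894 CPM in pre-spawning ovaries 1 to 3, 947, 1403 and 861 CPM in spawning ovaries 1 to 3, and 807, 2724 and 1920 CPM in post-spawning ovaries 1 to 3. Spawning ovaries lay below pre-spawning ovaries by the choice of features, and within each season the spawning sum was 0.321, 0.394 and 0.298 of the pre-spawning sum (seasons 1 to 3). On library totals, post-spawning ovary 1 was below every spawning ovary. Post-spawning ovaries 2 and 3 were above every spawning ovary and, on these totals, below every pre-spawning ovary. The mean was 3135 ± 366 CPM before spawning, 1070 ± 291 CPM at spawning and 1817 ± 963 CPM after spawning (SD, n = 3 each). Without post-spawning ovary 1, the log2 ratio of the post-spawning to the spawning sum was 1.12, against 0.76 with it, and that of the post-spawning to the pre-spawning sum was -0.43, against -0.79 with it. Without post-spawning ovary 2 the same log2 ratios were 0.35 and -1.20. On TMM-scaled library sizes, the post-spawning sum was 1.99 times the spawning sum, against 1.70 times on library totals. It was 0.661 of the pre-spawning sum on TMM-scaled sizes, against 0.58 on totals. The TMM scaling factor was 0.779 in post-spawning ovary 2 and 1.007, 0.968 and 1.037 in pre-spawning ovaries 1 to 3. On TMM-scaled sizes post-spawning ovary 2 therefore stood above pre-spawning ovaries 1 and 3.

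**Figure D1:**
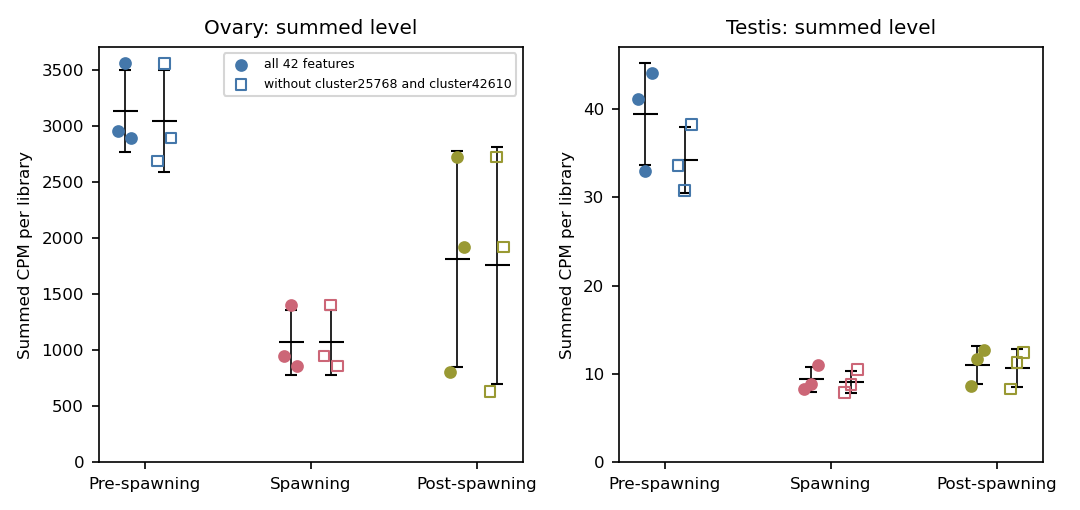
Summed CPM of the features in each library (points), with the mean and SD of 3 libraries, for ovaries (left) and testes (right, on its own scale) at the 3 stages. Filled points are all 42 features and open squares leave out cluster25768 and cluster42610. Post-spawning ovaries run from 807 to 2724 CPM, and pre-spawning testes (33.0 to 44.1 CPM) stand above the testes of the other stages (8.30 to 12.7 CPM).

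No feature of the 42 passed a test between ovary stages with edgeR's quasi-likelihood test and Benjamini-Hochberg adjustment over the 42501 features tested in ovaries, of which 0.0% were called in each of the 3 stage comparisons. All 42 passed the low-count filter. At an unadjusted p under 0.05 the comparison of spawning with pre-spawning held 24 of the 42, against 4.92% of all features tested, but that comparison chose them. Post-spawning against spawning held 13 of the 42 (7.14% of all features), and post-spawning against pre-spawning held 14 (9.26%). Both of these share libraries with the choice, so nothing is read from the excess. The median fitted log2 fold change of the 42 was 1.07 for post-spawning against spawning (0.04 over all features tested) and -0.39 for post-spawning against pre-spawning (0.05 over all). Both medians turn on single libraries. Without post-spawning ovary 1 they were 1.47 and -0.029, and without post-spawning ovary 2 they were 0.14 and -1.29. Without pre-spawning ovary 2 the median for post-spawning against pre-spawning was -0.20. DESeq2, which tested each feature of the table with a count in an ovary, called 2 of the 42 for spawning against pre-spawning (0.0991% of all features), 4 for post-spawning against spawning (0.507%) and 4 for post-spawning against pre-spawning (0.437%). These shares are over 100952 features, many of them too scarce for the low-count filter that all 42 passed. The 2 were cluster26677 and cluster66256, which share a transcript name stem, as described further on. Both were also among the 4 for post-spawning against pre-spawning. The 4 for post-spawning against spawning held cluster25214 and cluster48564, which share a stem as well. Such features are not independent of each other, and nothing is read from the excess here either.

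The features followed different courses after spawning. In 15 of the 42, every post-spawning ovary was below every pre-spawning ovary, against 9.25% of all features tested in ovaries and 11% of the 879 other features of the same ovary level and ratio to testes. In 5, every post-spawning ovary was above every spawning ovary, against 3.64% and 2.39%. In 1, cluster66256, every post-spawning ovary was below every spawning ovary (5.0% of all features tested). None of the 42 had every post-spawning ovary above every pre-spawning ovary (4.86% of all features tested). These counts and shares are on library totals and were not computed on TMM sizes. Among the 15 are cluster26677 with cluster66256, cluster27175 with cluster35901 and cluster46026 with cluster61364. Among the 5 are cluster25214 with cluster48564. The features of each such pair share a transcript name stem and are not independent of each other. Since the pre-spawning ovaries were chosen high and the spawning ovaries low, a post-spawning level between them is favoured by the choice. By group means, 12 features were at least as high after spawning as before it, as were 388 of the 879. At or under 0.1 of the pre-spawning mean were 6, for which no share over other features was computed. The 12 include cluster42610 and the 6 include cluster25768, each through a single library. Pre-spawning levels were chosen high, so nothing is read from either count.

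**Figure D2:**
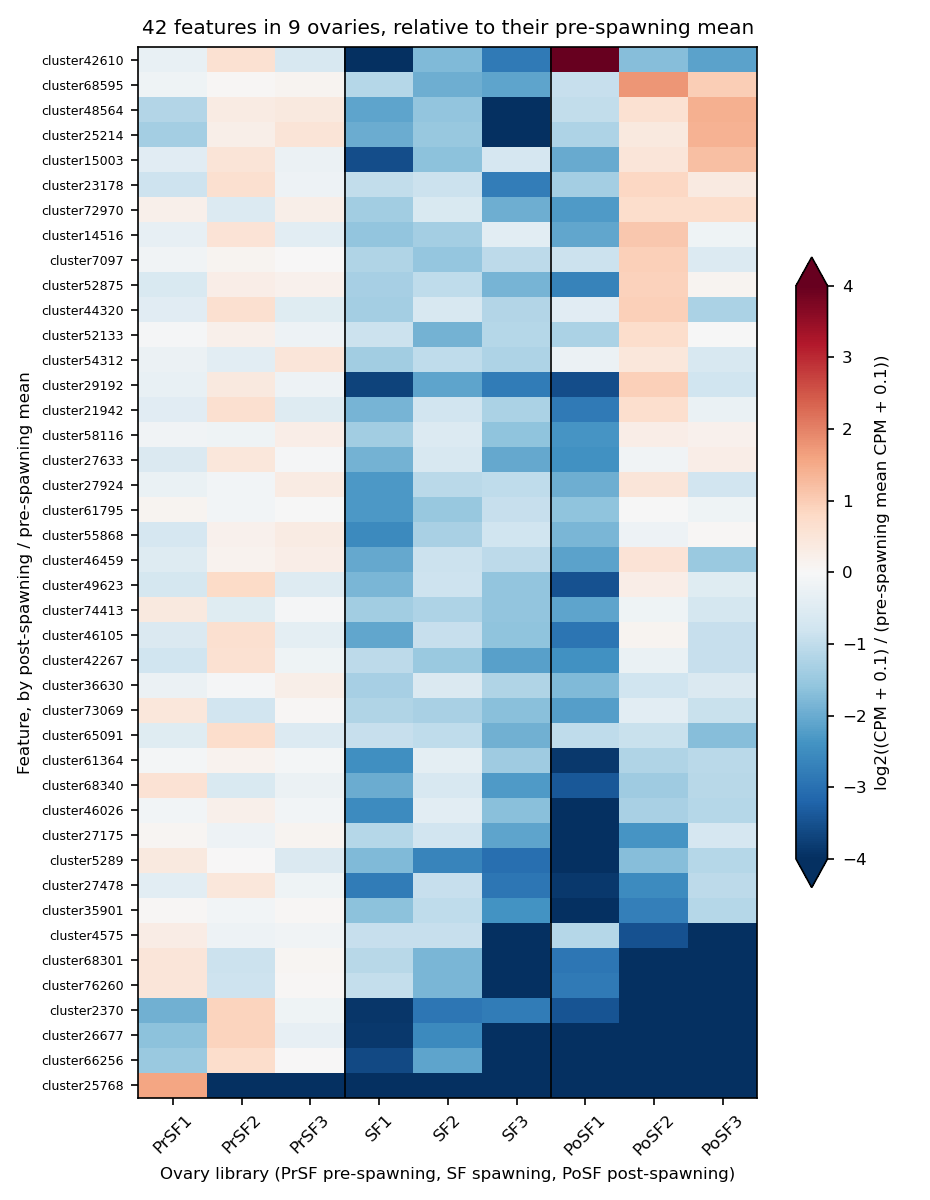
Level of each of the 42 features (rows) in each of the 9 ovaries (columns), as log2 of CPM + 0.1 over its pre-spawning mean + 0.1, with rows ordered by the ratio of the post-spawning to the pre-spawning mean. Colours stop at 4 in either direction. The column of post-spawning ovary 1 is the lowest of the 9 in 20 features, and the bottom 7 rows are near or below the lower end of the scale in several libraries.

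Apart from cluster25768, taken up further on, the lowest levels after spawning relative to the pre-spawning mean were those of cluster66256, cluster26677 and cluster2370. The single transcript cluster66256 stood at 18.5, 83.4 and 52.6 CPM in pre-spawning, 4.17, 11.8 and 1.19 CPM in spawning and 1.03, 0.194 and 0.708 CPM in post-spawning ovaries 1 to 3. No stage overlapped another, and the post-spawning mean was 0.0125 of the pre-spawning mean. Its log2 fold change was -6.40 (SE 0.98) for post-spawning against pre-spawning and -3.01 (SE 0.86) for post-spawning against spawning, with edgeR adjusted p of 0.206 and 0.613. DESeq2 adjusted p for the same comparisons was 2.57e-10 and 0.0348.

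The cluster26677, of 2 transcripts, stood at 21.8, 127 and 54.2 CPM in pre-spawning, 4.53, 11.5 and 1.80 CPM in spawning and 3.22, 0.625 and 1.09 CPM in post-spawning ovaries. Spawning and post-spawning levels overlapped, through post-spawning ovary 1 and spawning ovary 3. The log2 fold change of post-spawning against pre-spawning was -5.42 (SE 0.94, edgeR adjusted p = 0.329, DESeq2 adjusted p = 1.63e-07). The cluster2370 had 11 transcripts, the most of any of the 42. It stood at 43.6, 309 and 148 CPM in pre-spawning, 11.1, 22.3 and 23.7 CPM in spawning and 15.2, 1.23 and 2.86 CPM in post-spawning ovaries. Only post-spawning ovary 1 lay inside the spawning range. Its log2 fold change of post-spawning against pre-spawning was -4.76 (SE 1.02, edgeR adjusted p = 0.497, DESeq2 adjusted p = 6.51e-05). Without pre-spawning ovary 2 this log2 fold change was -4.50 for cluster26677 and -3.89 for cluster2370, and without post-spawning ovary 1 it was -6.24 and -6.32. For cluster66256 it ran from -6.83 to -5.78 over the libraries left out in turn, and that of post-spawning against spawning was -2.004 without spawning ovary 2. In all 3 features pre-spawning ovary 1 was the lowest and pre-spawning ovary 2 the highest of the pre-spawning ovaries. Of these, cluster66256 and cluster26677 share a transcript name stem and are not independent of each other.

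A second set of 3 was lowest in the same 3 libraries, namely spawning ovary 3 and post-spawning ovaries 2 and 3. The same 3 libraries were also the lowest for cluster26677 above, so this does not set the 2 sets apart. The single transcript cluster76260 stood at 203, 81.0 and 151 CPM in pre-spawning, 74.4, 40.9 and 0.167 CPM in spawning and 20.2, 0.582 and 1.87 CPM in post-spawning ovaries. The single transcript cluster68301 stood at 121, 48.5 and 92.5 CPM in pre-spawning, 40.7, 24.5 and 1.36 CPM in spawning and 11.6, 3.75 and 3.76 CPM in post-spawning ovaries. The 7-transcript cluster4575 stood at 26.6, 18.7 and 19.3 CPM in pre-spawning, 11.4, 11.2 and 1.17 CPM in spawning and 9.79, 1.85 and 1.25 CPM in post-spawning ovaries. For all 3 features spawning ovary 3 lay far below the other spawning ovaries. The log2 fold change of post-spawning against pre-spawning was -4.27 for cluster76260 and -3.71 (SE 0.94) for cluster68301, both with an edgeR adjusted p of 0.53, and DESeq2 called cluster68301 (adjusted p = 0.00552). Without post-spawning ovary 1 these log2 fold changes were -6.82 and -4.36.

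The reverse course, higher after spawning than at spawning, was seen in cluster68595, cluster48564, cluster25214, cluster7097 and cluster54312. The single transcript cluster68595 stood at 27.2, 31.3 and 33.1 CPM in pre-spawning, 13.7, 7.84 and 7.01 CPM in spawning and 16.1, 105 and 60.5 CPM in post-spawning ovaries. Post-spawning ovary 1 lay below the pre-spawning ovaries and post-spawning ovaries 2 and 3 above them. The log2 fold change of post-spawning against spawning was 2.95 (SE 0.65, edgeR adjusted p = 0.556, DESeq2 adjusted p = 0.00331). Without post-spawning ovary 1 it was 3.41 and passed with edgeR (adjusted p = 0.0273), and without post-spawning ovary 2 it was 2.02 (edgeR adjusted p = 1.0). Over all 6 libraries left out in turn the adjusted p of edgeR ran from 0.0273 to 1.0, and with season as a block it was 0.738.

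The single transcript cluster48564 stood at 8.78, 25 and 25.8 CPM in pre-spawning, 4.49, 6.56 and 0.732 CPM in spawning and 9.93, 30.1 and 53.6 CPM in post-spawning ovaries. The 2-transcript cluster25214 stood at 19.7, 59.6 and 73.4 CPM in pre-spawning, 12.8, 17.5 and 1.53 CPM in spawning and 21.4, 67.2 and 134 CPM in post-spawning ovaries. The post-spawning ranges of both overlapped the pre-spawning ranges. For post-spawning against spawning, the log2 fold change was 3.25 (SE 0.82, edgeR adjusted p = 0.583, DESeq2 adjusted p = 0.00654) for cluster48564 and 3.06 (SE 0.88, edgeR adjusted p = 0.613, DESeq2 adjusted p = 0.0246) for cluster25214. These features share a transcript name stem, as described further on, and are not independent of each other. The 5-transcript cluster7097 stood at 125, 147 and 138 CPM in pre-spawning, 59.8, 46.6 and 66.1 CPM in spawning and 74.6, 265 and 93.0 CPM in post-spawning ovaries. The post-spawning libraries lay on both sides of the pre-spawning ones. For the single transcript cluster54312 the levels were 17.3, 15.1 and 28 CPM in pre-spawning, 7.57, 10 and 8.49 CPM in spawning and 17.3, 27.4 and 13 CPM in post-spawning ovaries.

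**Figure D3:**
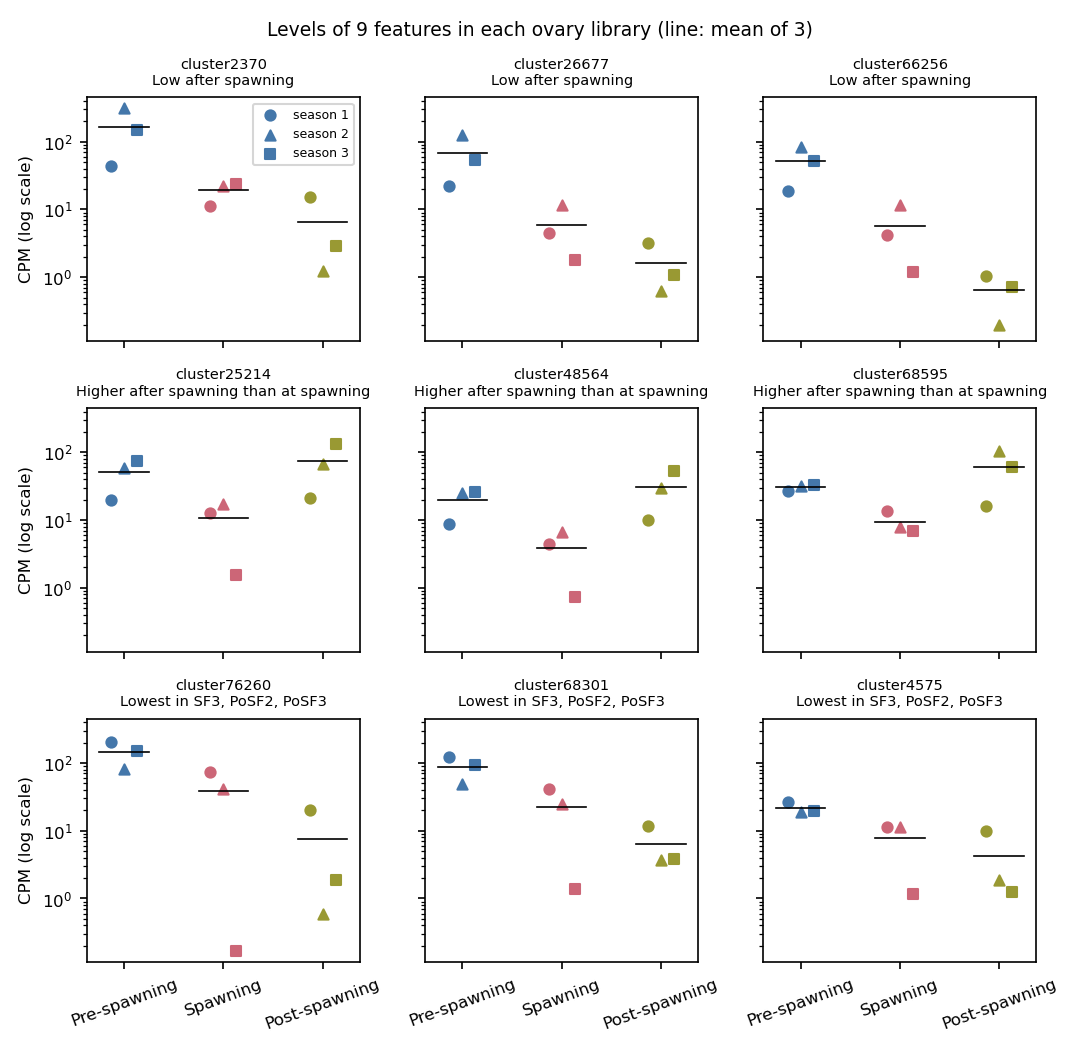
CPM (log axis) of 9 features in each ovary library at the 3 stages, with a marker shape for each season and a line at the mean of 3 libraries. The top row lies at 0.194 to 15.2 CPM after spawning, and the middle row is above its spawning range after spawning. The bottom row is lowest in spawning ovary 3 and post-spawning ovaries 2 and 3, as is cluster26677 of the top row.

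Other features swung widely between post-spawning libraries. The 2-transcript cluster29192 stood at 13.9, 22.2 and 14.8 CPM in pre-spawning, 1.21, 3.88 and 2.36 CPM in spawning and 1.37, 33.0 and 9.72 CPM in post-spawning ovaries. Its log2 fold change of post-spawning against spawning was 2.90 (edgeR adjusted p = 0.638), and it was 1.16 without post-spawning ovary 2. The 3-transcript cluster15003 stood at 8.58, 16.9 and 10.1 CPM in pre-spawning, 0.931, 3.70 and 7.41 CPM in spawning and 2.88, 16.6 and 27.2 CPM in post-spawning ovaries. The 7-transcript cluster5289 stood at 214, 164 and 108 CPM in pre-spawning, 47.1, 26.1 and 19.9 CPM in spawning and 3.42, 49.3 and 73.9 CPM in post-spawning ovaries. In each of these 3 features post-spawning ovary 1 was the lowest of its group.

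Post-spawning ovary 1 was the lowest of the post-spawning ovaries in 76.2% of the 42 (32 features) and in 71.9% of the 879 other features of the same ovary level and ratio. It was the lowest of all 9 ovaries in 47.6% of the 42 (20 features) and 42.7% of the 879. Both shares of the 42 were near those of the 879. Post-spawning ovary 1 lay below every pre-spawning ovary in 37 of the 42 (63.0% of the 879), post-spawning ovary 2 in 16 (27.5%) and post-spawning ovary 3 in 27 (22.5%). In 7 of the 42 (10% of the 879) post-spawning ovary 1 lay above every spawning ovary, as did post-spawning ovary 2 in 29 (44.5%) and post-spawning ovary 3 in 26 (44.1%). The choice of high pre-spawning and low spawning levels favours both kinds of count in the 42. All these counts and shares are on library totals. Post-spawning ovary 1 also had the fewest counts of any library, and the part of its depth in these levels was not tested.

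The most abundant of the 42 by mean ovary level were cluster21942, cluster7097, cluster44320, cluster36630, cluster27924 and cluster49623. The 2-transcript cluster21942 stood at 183, 399 and 177 CPM in pre-spawning, 69.8, 148 and 106 CPM in spawning and 35.7, 400 and 211 CPM in post-spawning ovaries. The post-spawning libraries spanned the ranges of both other stages, and the log2 fold change of spawning against pre-spawning was -1.34 (edgeR adjusted p = 0.868), or -0.76 without pre-spawning ovary 2. The single transcript cluster44320 stood at 90.7, 193 and 89.6 CPM in pre-spawning, 48.3, 79.0 and 55.5 CPM in spawning and 90.9, 240 and 52.3 CPM in post-spawning ovaries. For cluster36630, also a single transcript, pre-spawning ovaries had 131, 150 and 180 CPM, spawning ovaries 61.1, 102 and 66.4 CPM and post-spawning ovaries 45.1, 88.8 and 102 CPM. Its spawning and post-spawning ranges overlapped and both lay below the pre-spawning range. The 2-transcript cluster27924 averaged 132 ± 29.6 CPM before, 51.8 ± 21.9 CPM at and 99.8 ± 78.2 CPM after spawning, and the single transcript cluster49623 averaged 123 ± 73.5, 48.6 ± 18.9 and 82.6 ± 68.8 CPM (SD, n = 3 each).

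**Figure D4:**
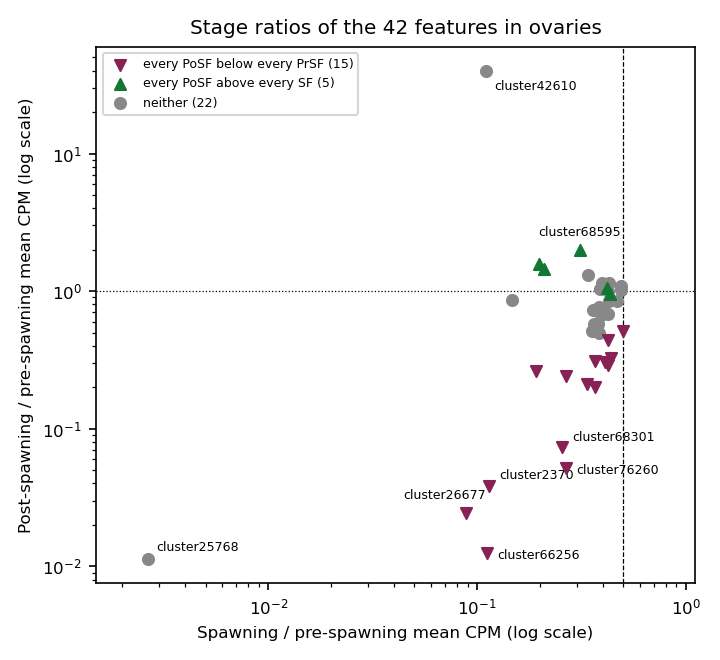
Ratio of the post-spawning to the pre-spawning mean CPM against the ratio of the spawning to the pre-spawning mean CPM for each of the 42 features in ovaries, on log axes. The dashed line is the limit of 0.5 that the choice set and the dotted line marks equal means. Triangles mark the 15 features whose post-spawning ovaries were all below the pre-spawning ones and the 5 whose post-spawning ovaries were all above the spawning ones, and cluster25768 and cluster42610 stand apart from the rest.

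The label of ovary-predominant features lower at spawning did not describe 2 of the 42 well. The 2-transcript cluster25768 stood at 268 CPM (8201 counts) in pre-spawning ovary 1, at 0.542 and 0.494 CPM in pre-spawning ovaries 2 and 3, at 0.243, 0.0733 and 0.397 CPM in spawning ovaries and at 0.274, 1.38 and 1.38 CPM in post-spawning ovaries. A single library gave 98.2% of its summed ovary level. Each pre-spawning testis, at 7.39, 2.17 and 4.62 CPM, exceeded each of the other 8 ovaries. The fitted log2 fold change of spawning against pre-spawning ovaries was -8.41 (SE 2.33, edgeR adjusted p = 0.868) and was -1.09 without pre-spawning ovary 1.

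The single transcript cluster42610 stood at 176 CPM in post-spawning ovary 1 (2570 counts), which gave 96.9% of its summed ovary level, and at 0.388 and 0.257 CPM in post-spawning ovaries 2 and 3. Pre-spawning ovaries had 1.21, 2.34 and 0.922 CPM, and spawning ovaries had 0 (no count), 0.366 and 0.126 CPM. Outside 1 library each, neither feature reached the 10 CPM of the lower limit. Without both, the summed level was 2686 to 3553 CPM in pre-spawning, 861 to 1402 CPM in spawning and 630 to 2722 CPM in post-spawning ovaries.

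The features were not all separate measurements. Transcript identifiers in the deposited map share a stem when they differ only in a final transcript number, and reads of a gene, its duplicates or its alleles may be divided between features that share a stem. Schizothorax fishes are known to be polyploid, and closely similar gene copies can occur. Single transcripts made up 26 of the 42, and the other 16 clustered 2 to 11 transcripts each. A stem was shared with at least 1 other feature by 28 of the 42, and among the 861 pairs that the 42 form, 6 pairs shared a stem.

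Most of these pairs ran closely together across the 9 ovaries. The Pearson correlation of log2(CPM + 0.1) over the 9 ovaries, which share libraries and stages and carry no p, was 0.999 for cluster46026 with cluster61364, 0.996 for cluster25214 with cluster48564, 0.995 for cluster27175 with cluster35901, 0.986 for cluster26677 with cluster66256 and 0.982 for cluster73069 with cluster74413. Over all 861 pairs the median was 0.572, and 14 pairs reached 0.95. The sixth stem pair, cluster21942 with cluster61795, was not among those 14. The pair of cluster46026 and cluster61364 had 14.5, 61.8 and 26.1 CPM and 20.8, 88.1 and 42.6 CPM in spawning ovaries 1 to 3, against 77.4, 95.9 and 77.7 CPM and 110, 127 and 110 CPM in pre-spawning ovaries 1 to 3. Both were highest of the spawning ovaries in ovary 2. The pair of cluster73069 and cluster74413 had 56.0, 53.2 and 40.8 CPM and 41.2, 45.8 and 35.7 CPM in spawning ovaries, against 177, 77.1 and 135 CPM and 142, 76.9 and 105 CPM in pre-spawning ovaries. Here pre-spawning ovary 2 was the lowest of its group in both.

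High correlations also occurred between features without a shared stem. The features cluster68301 and cluster76260, lowest in the same 3 libraries, correlated at 0.979, and each correlated with cluster4575, at 0.961 and 0.970. These 3 features were set together above for their shared lowest libraries, which itself favours a high correlation. The features cluster46105 and cluster49623 correlated at 0.979, and cluster58116 and cluster72970 at 0.965. No gene name is available for any of these features.

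Features that share a stem with the 42 but are not among them numbered 136, and 124 of these reached a mean of 1 CPM in ovaries. Their spawning mean was below their pre-spawning mean in 86.3%, compared with 71.2% of the 2171 other ovary-predominant features (at least 1 CPM and 16 times the testis mean) and 46.2% of all features of at least 1 CPM in ovaries. Every spawning ovary was below every pre-spawning ovary in 29.8% of the 124, compared with 9.81% and 4.97%. Of the 124, 117 had an ovary mean of at least 16 times the testis mean and so are also among the 2171. Because reads can be divided among features of a stem, these 124 are not independent of the 42, and no test is attached. Most of the 124 came from few stems. Partners of at least 1 CPM numbered 42 for cluster27924, 21 for cluster72970, 19 for cluster27478 and 10 for cluster42267. Every spawning ovary was below every pre-spawning ovary in 6, 8, 11 and 1 of these, in that order. The shares of the 124 therefore rest largely on few stems.

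For some features the sum over the stem gave another picture than the feature alone. In 19 of the 28 features with partners, the summed level of the feature and its partners was lower in every spawning than in every pre-spawning ovary, and in 16 the pre-spawning sum was also at least 2 times the spawning sum. In all 28 the mean of the sum was lower at spawning. These are not 28 separate sums. Both features had the same sum in cluster46026 with cluster61364, cluster25214 with cluster48564, cluster27175 with cluster35901, cluster26677 with cluster66256 and cluster73069 with cluster74413. Such a sum was counted for both features. Each sum also holds the chosen feature itself, which favours a lower spawning sum. No share over other features was computed, so nothing is read from these counts. Of the 28, 8 features held under 10% of the sum. The feature cluster27924 held 0.635% of a sum over 44 features, which averaged 12186 ± 4585 CPM in spawning and 16975 ± 630 CPM in pre-spawning ovaries (SD, n = 3 each), and these ranges overlapped. The feature cluster42267 held 0.56% of a sum over 15 features (5916 ± 876 CPM against 9302 ± 2903 CPM), and its ranges overlapped as well. The feature cluster27478 held 0.402% of a sum over 20 features, 7102 ± 2736 CPM at spawning against 13831 ± 896 CPM before spawning, without overlap. The feature cluster72970 held 0.814% of a sum over 24 features, 6713 ± 1994 CPM against 11885 ± 1495 CPM, also without overlap. By contrast cluster2370 held 82.6% of a sum over 4 features, at 25.6 ± 8.71 CPM in spawning and 199 ± 167 CPM in pre-spawning ovaries, and cluster76260 held 92.4% of a sum over 3.

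The course over stages in testes was not used to choose the features, apart from the ceiling on the testis mean and the requirement of more than 3 counts. In testes the 42 features were scarce, with no mean over the 9 testes above 2.73 CPM. Their summed level was 41.2, 33.0 and 44.1 CPM in pre-spawning, 8.30, 8.90 and 11 CPM in spawning and 8.64, 11.8 and 12.7 CPM in post-spawning testes 1 to 3. Every testis at and after spawning was below every pre-spawning testis, and the spawning and post-spawning ranges overlapped. These sums rest on 375 to 517 counts in a spawning testis, 375 to 671 in a post-spawning testis and 1004 to 1800 in a pre-spawning testis.

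The size of this difference depends on the scaling. On library totals the log2 ratio of the summed level was -2.07 for spawning against pre-spawning testes, where the median over all 51080 features tested in testes was -0.49. On TMM-scaled library sizes it was -1.46, with a median over all features of 0.05. For post-spawning against pre-spawning testes the values were -1.84 (median over all -0.71) on totals and -1.20 (median over all -0.11) on TMM sizes. A sum gives more weight to abundant features than a median does. As medians of log2 ratios of CPM + 0.1 on totals, spawning against pre-spawning was -1.15 for the 42. It was -0.78 for the 879 other features of the same ovary level and ratio. For post-spawning against pre-spawning these medians were -0.76 and -0.77, so no excess of the 42 was seen there. Within the seasons the spawning sum was 0.202, 0.269 and 0.250 of the pre-spawning sum on library totals. Other ovary-predominant features were also lower, since the 879 of the same ovary level and ratio summed to 757 ± 153 CPM in spawning, against 1527 ± 157 CPM in pre-spawning testes (SD, n = 3 each). In 16 of the 42 features every spawning testis was below every pre-spawning testis, against 28.9% of the 879 and 13.8% of all features with a count in a testis. In 15 every post-spawning testis was below every pre-spawning testis, against 33.3% and 19.2%. These counts and shares are on library totals and were not computed on TMM sizes. The limit of more than 3 testis counts was met in pre-spawning testes alone by 6 of the 42, among them 3 of these 16 and 3 of these 15, and for such features the limit itself favours a higher pre-spawning level. Of the 879, which met the same limit, 39 did so in pre-spawning testes alone, and the 13.8% and 19.2% are over features without this limit, so nothing is read from the counts beside them.

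Only 22 of the 42 passed the low-count filter in testes, and 10 had fewer than 20 counts in the 9 testes together. With edgeR, 1 of the 22, cluster25768, was lower in spawning than in pre-spawning testes, where 2.21% of all features tested were called lower, and 0 of the 22 were called higher (1.83%). The same feature was lower in post-spawning than in pre-spawning testes (2.97% of all features tested called lower, 3.18% higher). With edgeR, 0 of the 22 were called between post-spawning and spawning testes (0.0352% of all features tested), and 0 had an unadjusted p under 0.05 (15.9%). DESeq2 called 6 of the 42 for spawning against pre-spawning testes (5.69% of all features with a count in a testis), 5 for post-spawning against pre-spawning (6.79%) and 0 for post-spawning against spawning (1.42%). With season as a block, edgeR called 0 of the 22 against pre-spawning testes at either stage, where 0.0% of all features were called at spawning and 2.56% after it.

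The feature cluster25768 stood at 7.39, 2.17 and 4.62 CPM in pre-spawning, 0.199, 0.0432 and 0.489 CPM in spawning and 0.341, 0.470 and 0.228 CPM in post-spawning testes. It was the single large outlier of pre-spawning ovary 1 described above, so its place among ovary-predominant features rests on that library. The log2 fold change was -3.75 (SE 0.76, edgeR adjusted p = 0.0411) for spawning against pre-spawning and -3.18 (SE 0.74, edgeR adjusted p = 0.0429) for post-spawning against pre-spawning testes. With season as a block the adjusted p of edgeR was 0.0635 and 0.0613. The fit on all 18 libraries called cluster25768 in neither comparison. For spawning against pre-spawning, the edgeR adjusted p missed the threshold when either pre-spawning testis 2 (0.13) or 3 (0.0944) was left out, and likewise for spawning testis 1 (0.0513) or 2 (0.102). Leaving out pre-spawning testis 1 instead gave 3 of the 42 called in each comparison with pre-spawning testes. For post-spawning against pre-spawning the call ended without any of the post-spawning testes or pre-spawning testis 2 or 3, with edgeR adjusted p from 0.094 to 0.182.

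Of cluster36630, cluster23178 and cluster5289, the edgeR fit on the 9 testes called none between stages. The feature cluster36630 stood at 6.24, 2.10 and 0.648 CPM in pre-spawning, 0.111, 0.259 and 0.340 CPM in spawning and 0.234, 0.220 and 0.361 CPM in post-spawning testes. Its log2 fold change for spawning against pre-spawning was -2.99 (SE 0.81, edgeR adjusted p = 0.0604), and it passed in a fit on all 18 libraries (adjusted p = 0.0313) and with DESeq2 (adjusted p = 0.00664). For post-spawning against pre-spawning it passed with DESeq2 as well (adjusted p = 0.0112, against 0.0613 with edgeR). Without pre-spawning testis 1, which held the highest level, the log2 fold change of spawning against pre-spawning was -1.94. The 2-transcript cluster23178 stood at 0.297, 0.428 and 1.62 CPM in pre-spawning testes, and spawning testes held 2 counts in all. The fitted log2 fold change was -4.92 (SE 1.41, edgeR adjusted p = 0.0671, 0.0449 in a fit on all 18 libraries and 0.0117 with DESeq2), -3.66 without pre-spawning testis 3 and -7.68 without spawning testis 2. The feature cluster5289, the highest of the 42 in testes, stood at 6.36, 7.24 and 3.32 CPM in pre-spawning, 1.42, 0.929 and 2.60 CPM in spawning and 0.830, 0.376 and 1.52 CPM in post-spawning testes. On library totals neither later stage overlapped the pre-spawning testes. The TMM scaling factor was 1.29 in pre-spawning testis 3 and 0.967 in spawning testis 3. On TMM-scaled sizes the spawning range therefore reached the pre-spawning range. The log2 fold change of cluster5289 was -1.24 for spawning against pre-spawning (edgeR adjusted p = 0.188). For post-spawning against pre-spawning it was -2.004 (edgeR adjusted p = 0.0645, DESeq2 adjusted p = 0.0240).

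The features low after spawning in ovaries were uneven among pre-spawning testes. The feature cluster2370 stood at 2.77, 0.0987 and 7.70 CPM in pre-spawning testes, and cluster26677 at 0.297, 0.362 and 8.39 CPM, so that pre-spawning testis 3 was the highest of the group for both. It was the lowest of the group for cluster66256, which stood at 0.709, 0.164 and 0.122 CPM and was highest in pre-spawning testis 1. Spawning testes held 34 counts of cluster2370 and 8 of cluster26677, against 314 and 231 in pre-spawning testes.

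The single transcript cluster46459 ran the other way. It stood at 0.114, 0.362 and 0.162 CPM in pre-spawning, 2.63, 0.475 and 0.511 CPM in spawning and 0.915, 0.847 and 1.06 CPM in post-spawning testes. It was the only one of the 42 with every spawning testis above every pre-spawning testis (2.36% of all features with a count in a testis) or with every post-spawning testis above every pre-spawning testis (6.59%). In ovaries it stood at 4.33, 10.1 and 8.77 CPM in spawning, against 12.7, 20.2 and 22.1 CPM in pre-spawning libraries. The log2 fold change in testes was 2.98 (SE 0.80, edgeR adjusted p = 0.0593, DESeq2 adjusted p = 0.00417) for spawning against pre-spawning and 2.71 (SE 0.79, edgeR adjusted p = 0.0637, DESeq2 adjusted p = 0.00945) for post-spawning against pre-spawning. Without spawning testis 1, the highest library, the log2 fold change of spawning against pre-spawning was 1.91, and without pre-spawning testis 2 the 2 values were 3.67 and 3.41. It was also the feature closest to the limit on the ratio of ovary to testis.

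**Figure D5:**
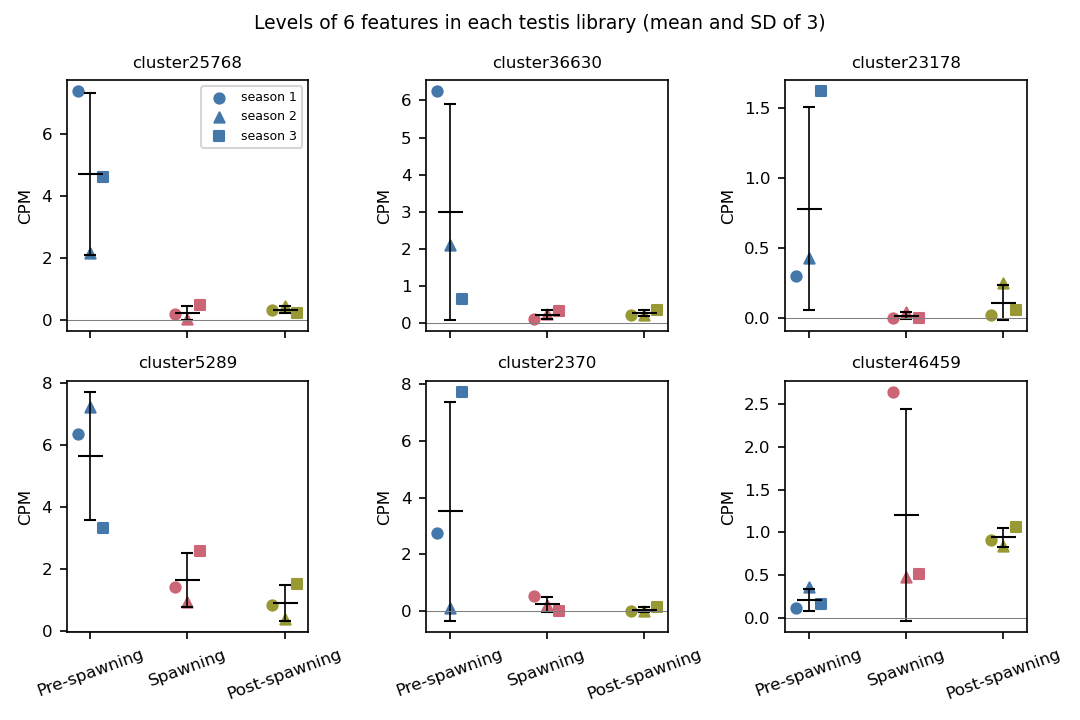
CPM of 6 features in each testis library at the 3 stages, with a marker shape for each season and the mean and SD of 3 libraries, each panel on its own linear scale. The first 5 features have their highest library before spawning, and cluster46459 has its lowest libraries there.

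At the low end, testis levels were at the limit of detection. In post-spawning testes 7 of the 42 features had no count and 15 had at most 3, over 131548163 counts, where 3 counts correspond to 0.0228 CPM. The feature cluster65091 had no count in pre-spawning testes, where 3 counts in the group correspond to 0.0304 CPM, and 7 counts in spawning testes. Where a feature had at most 3 counts in both groups compared, a stage difference in testes was not detectable at this depth. Others of the 15 had more counts in pre-spawning testes, so this does not hold for all of them.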

How the data were processed

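For 18 libraries the authors deposited whole-number counts of each feature, beside a text table that assigns transcripts to features. Fastp and Salmon are named in the submitters' processing notes without versions, and how the transcriptome was assembled, clustered or rounded is not given in the sources used here. Per the labels, Trizol RNA was depleted of ribosomal RNA with a kit designed for human, mouse and rat.

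CPM was computed from column totals. Stages were compared on the 9 libraries of each gonad with edgeR 4.0.16 in R 4.3.3 (quasi-likelihood F-test, TMM, filterByExpr, Benjamini-Hochberg adjustment, threshold 0.05). Standard errors were the log2 fold change over the root of F. Alternatives were DESeq2 1.42.0, RLE scaling, no filter, a fit on all 18 libraries, season as a block, and leaving out each library. The fit was run on simulated counts with the same spread for every feature of a gonad and no outlying library. The choice of features was run on made-up features with values set to meet or miss its limits. Neither shows how the fit or the choice behaves with the spread of these libraries.

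The labels give a season as batch that equals the replicate number. Whether libraries of a season share fish or processing is not said, so season was used as a block only as an alternative. Deviations from group means correlated above 0.1 in 8 of 45 same-season pairs of libraries (-0.368 to 0.299, median -0.00285). Pairs of different seasons were not computed, so these values have no reference. Many of these pairs join an ovary with a testis, while stages were compared within a gonad. Of the 9 pairs of ovaries, 3 were above 0.1 (-0.368 to 0.221), and pairs of testes ran from -0.243 to 0.299. Pre-spawning with spawning testis 1 (0.204) and spawning with post-spawning testis 1 (0.21) were above 0.1. So were pre-spawning with post-spawning testis 2 (0.266) and spawning with post-spawning testis 3 (0.299). Between the gonads only spawning ovary 2 with post-spawning testis 2 (0.204) was above 0.1. Pairing within a gonad was not tested.

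The features and lists were chosen with earlier results of these data known. Named features were those extreme in ovary level, stage ratio, transcript number or testis level, those at a limit, and those called. Others, such as those named for a shared stem or for their lowest libraries, were named after their values were seen. A count of 0 allows up to 3 counts, for counting error only.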

Additional observations from a re-analysis of the deposited data

How the results depend on the processing

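With edgeR, 0 features and 0 of the 42 were called in each of the 3 ovary comparisons, also with RLE scaling and with season as a replicate block. For spawning against pre-spawning ovaries, DESeq2 called 100 features (2 of the 42), DESeq2 without independent filtering 78 (2) and edgeR without the low-count filter 1389 (14). For post-spawning against spawning ovaries these counts were 512 (4), 364 (2) and 1761 (13), and for post-spawning against pre-spawning ovaries 441 (4), 294 (4) and 2159 (12), with 1 feature in the fit on all 18 libraries. Leaving out a library gave 0 to 41 features (0 to 1 of the 42) for post-spawning against spawning ovaries, 0 to 25 (0) for post-spawning against pre-spawning and 0 (0) for spawning against pre-spawning, and the nonzero counts came without post-spawning ovary 1. In testes, 2065 features (1 of the 42) were called for spawning against pre-spawning, and the alternatives gave 7196 (6) with DESeq2, 4789 (4) without its independent filtering, 1222 (2) with all 18 libraries, 8584 (7) without the filter and 0 (0) with the replicate block. Post-spawning against pre-spawning testes gave 3143 (1), with 8585 (5), 5977 (4), 1166 (1), 9485 (6) and 1309 (0) in the same order. Post-spawning against spawning testes gave 18 (0), with 1793 under DESeq2, 1166 without its filtering, 33 with RLE scaling, 3815 without the filter and 3 with the block. Leaving out a library gave 0 to 7909 features (0 to 3 of the 42), 2 to 9495 (0 to 3) and 0 to 177 (0) for these 3 testis comparisons, the highest 2 counts without pre-spawning testis 1. The causes of these differences were not tested.

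The log2 ratio of summed CPM kept its sign under each alternative. For spawning against pre-spawning testes it was -2.07 on library totals, -1.46 with TMM, -1.40 with RLE and -1.15 as the median over the 42. For post-spawning against pre-spawning testes it was -1.84, with -1.20, -1.15 and -0.76, and for post-spawning against spawning testes the median was 0.0025, against 0.23 for the sum. Leaving out a library gave -1.79 to -1.42 for spawning against pre-spawning ovaries, 0.35 to 1.12 for post-spawning against spawning ovaries, -1.20 to -0.43 for post-spawning against pre-spawning ovaries, and -2.20 to -1.98, 0.12 to 0.38 and -1.95 to -1.69 for spawning against pre-spawning, post-spawning against spawning and post-spawning against pre-spawning testes. Means of within-season ratios (the replicate block) were -1.58, 0.63 and -0.95 in ovaries and -2.07, 0.22 and -1.84 in testes, in that order. Sums without cluster25768 and cluster42610, an alternative chosen after seeing the data, gave -1.51, 0.72 and -0.79 in ovaries.

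The choice of features also depended on its settings. TMM scaling gave 54 features (38 of the 42 among them) and RLE scaling 78 (39). Column totals without the 100 most abundant features gave 40 (35). A ratio of 1.5 gave 89 (42) and a ratio of 3 gave 13 (13). Lower levels within each season in place of separate ranges (the replicate block) gave 84 (41). Leaving out a library gave 41 to 189 features, the highest without spawning ovary 2, where leaving out post-spawning libraries was chosen after seeing the data. Of the 42, 31 to 40 were kept, the fewest without pre-spawning ovary 2. Without a pre-spawning or spawning ovary, separate ranges are easier to meet, so a larger total does not speak for a stable list. Of 288 alternative values of the 24 log2 fold changes given for single features, 220 kept their direction and side of the threshold, 55 passed the threshold where the reported value had not, and 13 no longer passed it. All 13 belong to the testis values of cluster25768, the only ones of the 24 that passed as reported. For all other values, to keep their side was to stay uncalled.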

Other observations

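Spawning ovary 3 was the lowest spawning library in 22 of the 42 features (46.2% of the 879 others of the same ovary level and ratio), spawning ovary 1 in 17 (40.4%) and spawning ovary 2 in 3 (13.4%), with these libraries also used in the choice. The remaining stem pair, cluster27175 and cluster35901, had 2.60, 12.2 and 39.1 CPM and 2.05, 10.4 and 31.7 CPM in post-spawning ovaries 1 to 3, against 65.5, 54.1 and 67.4 CPM and 72.3, 64.9 and 71.4 CPM in pre-spawning ovaries, so post-spawning ovary 1 was the lowest for both.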
